A study of Homo sapiens with 6 samples.

Results

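The genes described here are 10 mesenchymal surface and identity markers: THY1, NT5E, ENG, MCAM, CD44, VIM, S100A4, VCAM1, ICAM1 and CD248. They were chosen by name, and all transcript rows carrying one of these gene names were taken from the deposited count table. Of the 10 genes, 9 had a row, with 100 of 153848 transcript rows in all, and 7 passed the count limits for testing, as did 11118 of 31768 genes. RNA came from HMC3, an immortalized human microglial cell line, in 6 independent cultures. The 3 control cultures received 0 Gy and the 3 irradiated cultures received an acute exposure to 15 Gy of X-rays, and both groups were collected after 24 h. All 6 cultures were of the same cell line and growth medium, so the groups describe 1 line at 1 dose and 1 time. Full-length cDNA of polyadenylated transcripts was amplified by PCR and read on the Oxford Nanopore platform, which gave a count for each transcript in each library. The question asked of these data was how radiotherapy changes gene expression and isoform usage in microglial cells.

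Mesenchymal cells are recognised by adhesion and signalling proteins on their surface and by a vimentin cytoskeleton. THY1 (CD90), NT5E (CD73) and ENG (CD105) together define cultured mesenchymal stromal cells, which lack markers of blood cells, and none of the 3 is a marker of microglia. CD44 and MCAM (CD146) bind matrix or neighbouring cells, S100A4 is a calcium-binding protein used as a fibroblast marker, and ICAM1 and VCAM1 are endothelial and stromal ligands of leukocyte integrins that inflammatory signals induce. CD248, or endosialin, marks pericytes and fibroblasts.

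Total counts ran from 4870897 to 9082409 per library. Levels are given as CPM, counts scaled to a common library size, after TMM scaling, which sets libraries to a common level from the bulk of genes, and changes are log2 fold changes of irradiated over control with their standard error (SE). TMM factors were 0.793 to 0.928 in controls and 1.092 to 1.242 in irradiated libraries. Over all genes the median change was 0.08 after TMM scaling and 0.53 with library totals alone, a shift of 0.448, so the direction of small changes depends on the scaling. Control culture 3 correlated more closely with the irradiated libraries (Pearson's r across genes on the log2 CPM scale, 0.9535 to 0.9614) than controls 1 and 2 did (0.924 to 0.9401). Tests were run with edgeR across all 11118 genes, and a gene passed at a Benjamini-Hochberg adjusted p under 0.05.

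ENG and MCAM rose after irradiation, THY1, NT5E and CD44 fell, and VIM and S100A4 did not pass the test. The 5 members that passed compare with 25.7% of all genes tested, of which 11.6% rose and 14.1% fell. With a limit of 1 on the absolute log2 fold change, the limit the study used for differential expression, 0 of the 7 members passed, against 5.7% of all genes. The 5 members that passed were also the 5 whose groups did not overlap, as was the case in 42.7% of all genes. The median log2 fold change was −0.27 over the 7 members and 0.08 over all genes. With 1 library left out the count of 5 fell to 1 without irradiated culture 1, to 2 without control 1 or irradiated culture 3, to 3 without control 2 and to 4 without irradiated culture 2, and it was 5 without control 3. In these bulk cultures, fewer cells expressing a gene and less RNA per cell cannot be told apart.

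**Figure D1:**
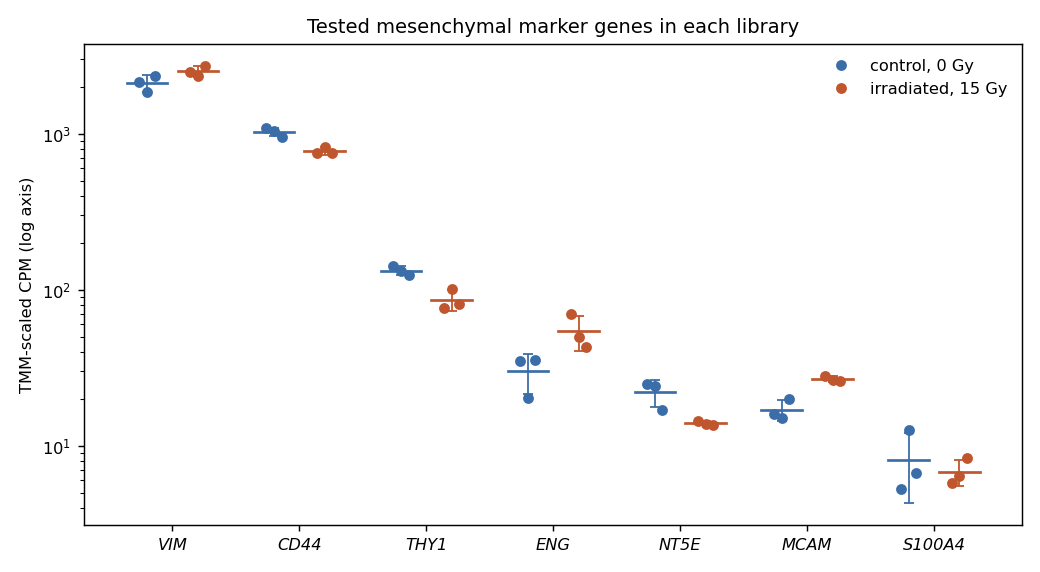
TMM-scaled CPM (log axis) of the 7 tested markers in each library, with 3 points per group, the mean as a horizontal line and the SD as the bar. The irradiated points of THY1, NT5E and CD44 lie below all control points, those of ENG and MCAM lie above them, and those of VIM and S100A4 overlap the controls.

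THY1, a glycolipid-anchored surface protein of the immunoglobulin superfamily that binds integrins, lies at chr11:119417378-119424985 on the minus strand (GRCh38, GENCODE release 29). It measured 142, 131 and 125 CPM in controls 1, 2 and 3 and 76.4, 101 and 80.7 CPM in irradiated cultures 1, 2 and 3. All irradiated cultures were below all controls. The level fell 1.54-fold, from 133 ± 8.78 to 85.9 ± 13.03 CPM (SD, n = 3 cultures each), with a log2 fold change of −0.63 (SE 0.135, edgeR quasi-likelihood adjusted p = 0.0037). It passed when any 1 library was left out, with adjusted p between 0.00138 and 0.0293 (edgeR). NT5E, the surface enzyme that makes adenosine from AMP, lies at chr6:85449584-85495791 on the plus strand and was measured with few counts, 93 to 160 per library. Its levels were 24.8, 24.2 and 17.1 CPM in the 3 controls, against 14.5, 13.9 and 13.5 CPM after irradiation. Control 3 was the lowest control and lay nearest to the irradiated cultures, without overlap. The log2 fold change was −0.65 (SE 0.212, adjusted p = 0.0346, edgeR). NT5E kept its call only without control 3 (adjusted p = 0.00698, edgeR) and lost it without any 1 of the other 5 libraries, with adjusted p up to 0.128.

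ENG, a co-receptor for TGF-beta and BMP ligands, lies at chr9:127815012-127854756 on the minus strand. It measured 35.1, 20.2 and 35.3 CPM among the controls, compared with 69.7, 49.8 and 42.9 CPM in irradiated cultures. Irradiated culture 1 was the highest, and irradiated culture 3 lay closest to the controls. ENG rose 1.80-fold (log2 fold change 0.85, SE 0.221, adjusted p = 0.0114, edgeR) and lost its call when irradiated culture 1 was left out (0.62, adjusted p = 0.0789, edgeR). MCAM, an adhesion molecule of the immunoglobulin superfamily found on pericytes and endothelium, lies at chr11:119308529-119321521 on the minus strand. Its levels were 16.1, 15.0 and 20.02 CPM in the 3 controls, against 28.0, 26.5 and 25.9 CPM after irradiation. The irradiated cultures were close to each other and all above the highest control. MCAM rose 1.56-fold (log2 fold change 0.65, SE 0.191, adjusted p = 0.0214, edgeR). Its call was lost without control 1 (adjusted p = 0.0596), control 2 (0.0757), irradiated culture 1 (0.0774) or irradiated culture 3 (0.0587), by the same edgeR test.

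CD44, the main surface receptor for hyaluronan, lies at chr11:35138870-35232402 on the plus strand and was the second most abundant member. It measured 1087, 1038 and 958 CPM among the controls, compared with 751, 824 and 748 CPM in irradiated cultures. All irradiated cultures were below the lowest control, and the level fell 1.33-fold (log2 fold change −0.41, SE 0.114, adjusted p = 0.0163, edgeR). Adjusted p rose to 0.0924 without control 1, 0.0639 without irradiated culture 1 and 0.0937 without irradiated culture 3 (edgeR). VIM, the intermediate filament protein of mesenchymal cells, lies at chr10:17228259-17237593 on the plus strand. It measured 2145, 1843 and 2352 CPM in the 3 controls, against 2476, 2340 and 2720 CPM after irradiation. Irradiated culture 2 fell within the range of the controls, and the log2 fold change of 0.25 (SE 0.128) did not pass (adjusted p = 0.161, edgeR). S100A4, which binds non-muscle myosin, lies at chr1:153543613-153550136 on the minus strand and held 21 to 82 counts per library. It measured 5.27, 12.5 and 6.67 CPM among the controls, compared with 5.75, 6.43 and 8.31 CPM in irradiated cultures. Control 2 was the highest and the groups overlapped (log2 fold change −0.27, SE 0.328, adjusted p = 0.573, edgeR).

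ICAM1 and VCAM1 were at the limit of detection. ICAM1, at chr19:10270835-10286615, had 0 counts in each control and 1 count in each irradiated culture. Its 3 irradiated counts correspond to 0.153 CPM of library totals (exact Poisson 95% interval 0.0316 to 0.447), and 0 counts in the controls allow up to 0.133 CPM at a floor of 3 counts over the group, with an exact Poisson upper limit of 0.164 CPM. VCAM1, at chr1:100719742-100739045, had 0, 1 and 1 counts in the controls and 0 in each irradiated culture. Its 2 control counts correspond to 0.0889 CPM (exact Poisson 95% interval 0.0108 to 0.321), and 0 counts in the irradiated cultures allow up to 0.153 CPM at the floor of 3 counts, with an exact Poisson upper limit of 0.188 CPM. A difference between the groups was not detectable at this depth in either gene. These limits cover counting error only. The library protocol added unique molecular identifiers, and the sources used here do not say whether PCR copies were collapsed with them. CD248 had no row and is not analysed here.

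Divided by the mean length of a gene's counted transcripts, which allows levels of different genes to be set side by side, the controls ran from VIM (957 ± 116 CPM per kb, SD, n = 3) through CD44 (270 ± 17.1) and THY1 (40.2 ± 2.66) to ENG (13.2 ± 3.79), S100A4 (13.1 ± 6.18), NT5E (7.62 ± 1.49) and MCAM (5.11 ± 0.796). VIM, CD44 and THY1 were each above the next gene in every control, whereas ENG, S100A4, NT5E and MCAM each overlapped their neighbour in this order. After irradiation the order was VIM (1138 CPM per kb), CD44 (203), THY1 (26.1), ENG (23.6), S100A4 (10.9), MCAM (8.05) and NT5E (4.83). THY1 and ENG, which did not overlap in the controls, overlapped in the irradiated cultures, with 23.2 to 30.6 CPM per kb for THY1 and 18.7 to 30.4 for ENG. MCAM ranked below NT5E in the controls and above it, without overlap, in the irradiated cultures. The length of ENG rests on the 4 of its 24 transcripts that release 29 holds.

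The direction of the members depended on the scaling. With library totals alone, 3 members rose and 0 fell, against 2 and 3 with TMM. Over all genes the same change of scaling moved the share that rose from 11.6% to 32.8% and the share that fell from 14.1% to 3.2%. ENG (1.29) and MCAM (1.09) rose with both scalings, and VIM passed with library totals (0.69, adjusted p = 0.00342, edgeR). THY1 (−0.18, adjusted p = 0.229) and NT5E (−0.18, adjusted p = 0.505) kept their sign without passing, and CD44 was at 0.04 (adjusted p = 0.614) by the same edgeR test. Relative to the shift of 0.448, THY1, NT5E and CD44 stayed below and ENG and MCAM above the bulk of genes. The same 5 members passed with RLE size factors and with DESeq2. Correcting each library for the dependence of its counts on gene length (the length offset) took MCAM below the threshold (0.47, adjusted p = 0.0776, edgeR) and moved CD44 to −0.65.

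**Figure D2:**
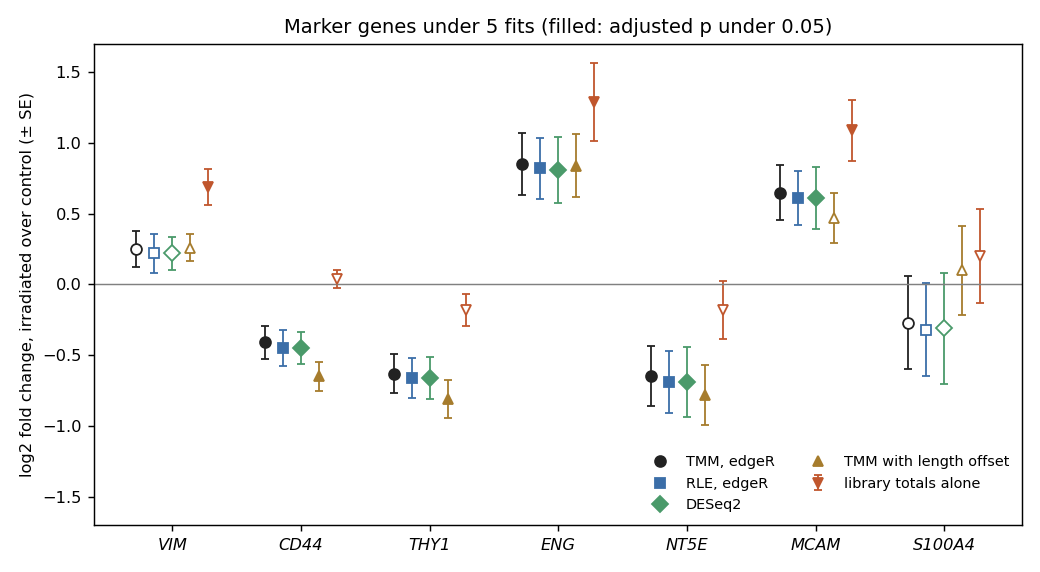
Log2 fold change of irradiated over control for the 7 tested markers (y axis, with the SE as the bar) under 5 fits, filled where the adjusted p was under 0.05. ENG stayed filled and above 0 in all 5 fits, while THY1, NT5E and CD44 were filled in 4 and open at −0.18, −0.18 and 0.04 with library totals alone.

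Genes that overlap the members were counted beside them, since the sources used here do not give how the counting treated strand. VIM-AS1, antisense to VIM, held 18 to 74 counts per library against 8551 to 21282 for VIM. THY1-AS1 held 2 to 20 counts, USP2-AS1, antisense across the THY1 locus, 23 to 87, and CD44-AS1 0 to 2. CBL, a ubiquitin ligase on the strand opposite MCAM, held 36 to 88 counts, of the same order as the 64 to 215 of MCAM, and did not pass (log2 fold change 0.34, adjusted p = 0.341, edgeR). S100A3 on the same strand as S100A4 held 27 to 54 counts, beside 21 to 82 for S100A4. For MCAM and S100A4, reads of the neighbour lie beside the value, and their part in it was not tested.

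At transcript level, 81 member transcripts were kept (at least 3 counts in at least 1 library). Of these, 9 rose and 14 fell at an adjusted p under 0.05, against 8.54% higher and 10.7% lower of all 74843 transcripts. With the fold limit, 5 were higher and 5 lower in irradiated cells, 10 of 81 against 7.69% of all transcripts. The 5 higher ones were all ENG transcripts, and the 5 lower ones were 3 of CD44 and 2 of VIM. Isoform fraction (IF) is the share of a gene's kept counts that falls on 1 transcript. No member transcript was switched, which required an adjusted p under 0.05 and a difference in IF of at least 10 percentage points. That is 0 of 81 against 0.404% of all transcripts by edgeR's usage test, and 0 as well by limma's. Differences in IF ran from −3.94 to 4.85 points, and 6 transcripts passed on the adjusted p alone, 4 of CD44 and 2 of VIM, against 4.44% of all.

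CD44 is spliced with or without a block of variable exons, which are inserted after the fifth exon of the standard form and lengthen the stem of the protein outside the cell. In release 29 the longest form, ENST00000428726, carries 9 of them, v2 to v10, between chr11:35196746 and chr11:35211449, 1143 bases in all. The sequences below join the last 20 bases of the exon before the junction, in lower case, to the first 20 bases of the exon after it, in capitals. They are shown because these joins are what tells the isoforms apart in a long read, and they come from the GENCODE release 29 transcripts (plus strand, GRCh38).
Standard form, ENST00000263398, exon ending at 35190065 joined to the constant exon at 35214852: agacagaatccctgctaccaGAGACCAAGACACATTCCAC
ENST00000428726, joined to v2 at 35196746: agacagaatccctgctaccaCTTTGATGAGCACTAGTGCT
ENST00000415148, joined to v3 at 35198121: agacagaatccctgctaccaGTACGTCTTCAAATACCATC
ENST00000433892, joined to v8 at 35208105: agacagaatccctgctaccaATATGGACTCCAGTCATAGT
ENST00000434472, joined to v10 at 35211246: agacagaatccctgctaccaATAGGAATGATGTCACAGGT
ENST00000425428, exon 2 ending at 35176740 joined to the fourth exon of the standard form at 35186832: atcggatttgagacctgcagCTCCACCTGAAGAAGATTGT

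ENST00000428726 (v2 to v10) and the standard ENST00000263398 took the largest shares, 29.4 ± 0.503% and 27.7 ± 0.230% of CD44 counts in controls and 28.4 ± 0.353% and 27.5 ± 0.129% in irradiated cells (SD, n = 3). These values are uncertain. The counts of both transcripts stood at a ratio of 1.03 to 1.07 in all 6 libraries, and both end in the same last exon of 3274 bases. The form starting at v8, ENST00000433892, measured 183, 181 and 152 CPM in controls and 109, 123 and 107 CPM in irradiated cultures (log2 fold change −0.61, SE 0.162, adjusted p = 0.00218, edgeR). The form starting at v3, ENST00000415148, measured 162, 164 and 127 CPM in controls and 77.6, 97.0 and 78.3 CPM in irradiated cultures. All irradiated cultures were below all controls in both forms, and the second fell by 0.84 on the log2 scale (SE 0.162, adjusted p = 8.32e-06, edgeR). The call of the v8 form was lost without irradiated culture 3 (adjusted p = 0.0552, edgeR), while that of the v3 form held when any 1 library was left out.

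Of the 4 CD44 transcripts that passed the usage test on the adjusted p, 3 took a larger share after irradiation and 1 a smaller share. ENST00000425428, which skips the third exon of the standard form and is annotated as a target of nonsense-mediated decay, went from an IF of 5.36 ± 1.05% to 8.56 ± 0.893% (adjusted p of usage = 0.00578, edgeR). ENST00000434472, with v10 alone, went from 3.39 ± 0.689% to 5.51 ± 0.301% (adjusted p of usage = 0.00554, edgeR), and ENST00000525469, a 2-exon model at the 3′ end, from 0.874 ± 0.353% to 2.11 ± 0.370% (adjusted p of usage = 7.81e-06, edgeR). In each of these 3 transcripts all irradiated cultures were above all controls. The fourth, the 580-base ENST00000528086, went down from 0.258 ± 0.0575% to 0.0952 ± 0.0555% without overlap (adjusted p of usage = 0.0497, edgeR). In levels, the first 2 had log2 fold changes of 0.22 and 0.24 that did not pass, and ENST00000525469 rose by 0.78 (adjusted p = 0.000791, edgeR). The 3 CD44 transcripts lower past the fold limit were minor ones, namely ENST00000442151 (13 to 38 counts per library), ENST00000528086 (2 to 22) and ENST00000526025 (7 to 19). ENST00000526025 lost its call without 5 of the 6 libraries, with adjusted p up to 0.218, and ENST00000442151 without irradiated culture 3 (adjusted p = 0.103, edgeR). With DESeq2, ENST00000526025 (adjusted p = 0.152) and ENST00000442151 (0.0623) did not pass either.

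When CD44 counts were summed by structure, transcripts with any variable exon held 65.4, 65.8 and 63.3% of counts in the 3 controls, against 60.3, 62.0 and 59.9% after irradiation. All irradiated cultures were below all controls, with means of 64.8 ± 1.31% and 60.7 ± 1.11% (SD, n = 3), a difference of −4.11 points. The two-sided exact permutation test over the 6 cultures gave p = 0.1, the smallest it can give with 3 against 3. Transcripts joining the constant exons directly went from 33.4 ± 0.940% to 36.3 ± 0.658%, and those that cover neither junction from 1.72 ± 0.377% to 2.95 ± 0.469%, again without overlap (exact p = 0.1 each). The class joining the constant exons directly holds the standard ENST00000263398, whose IF overlapped between the groups (27.7% and 27.5%). It also holds the decay-class ENST00000425428, whose IF went from 5.36% to 8.56%, and the rare ENST00000442151. Dividing counts by transcript length widened the difference in the variable share to −7.74 points. Leaving out the pair of transcripts that share the last exon of 3274 bases gave 82.5 ± 3.07% and 73.3 ± 2.54%, a difference of −9.26 points. This choice was made after seeing the data. The v8 form ENST00000433892 and the decay-class ENST00000425428, which fall in different classes, also share a last exon, of 899 bases. Both stayed in this comparison, and how counts were divided between them was not tested.

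**Figure D3:**
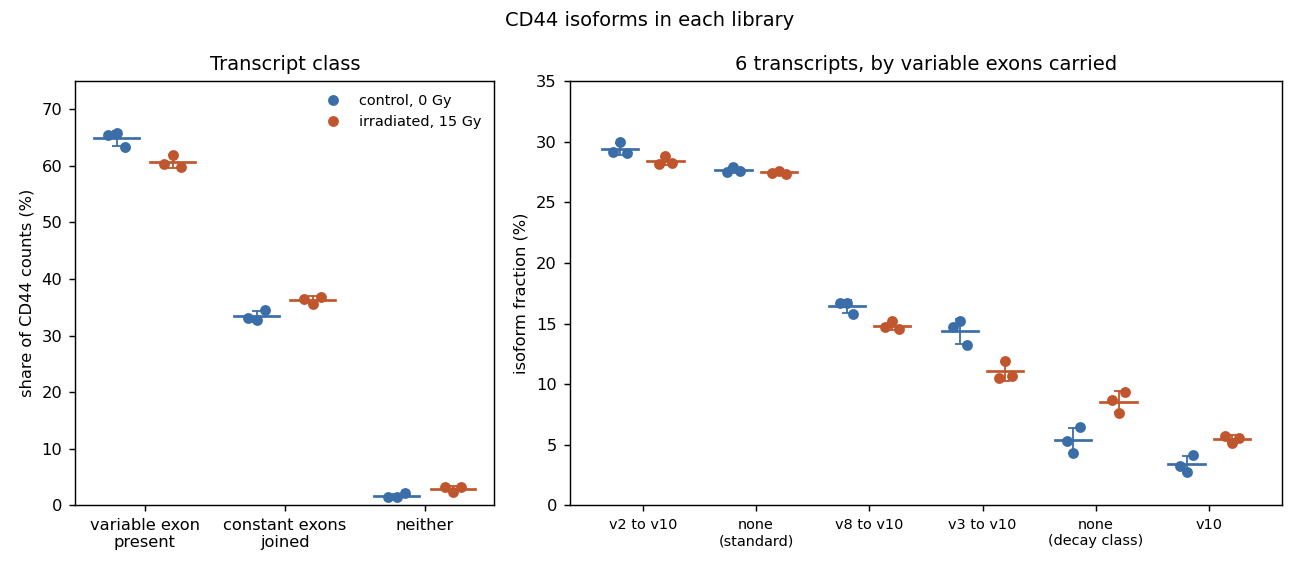
Share of CD44 counts by transcript class (left, %) and isoform fraction of 6 transcripts labelled by the variable exons they carry (right, %), with 3 libraries per group, the mean as a line and the SD as the bar. The share with a variable exon lies between 63.3 and 65.8% in controls and between 59.9 and 62.0% in irradiated cultures, and the decay-class form and the v10 form take more in every irradiated culture.

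VIM counts were spread over 4 transcripts, and 3 of them could not be told apart. The full-length coding ENST00000224237 (9 exons), the second coding model ENST00000544301 and the decay-class ENST00000487938 had counts within 7 of each other in every library, so their values are not independent. Each held 27.4% of VIM counts in controls and 25.8% in irradiated cells and had a log2 fold change of 0.12 that did not pass. The fourth, ENST00000469543, starts inside the first intron of the full-length form and runs through the introns on both sides of its exon 7. It is annotated as a target of nonsense-mediated decay. The junction of the full-length form and the read-through at the same splice site are shown since they separate the 2 products. The last 20 bases of exon 6, ending at chr10:17235389 on the plus strand, are in lower case, and the bases that follow are in capitals.
ENST00000224237, spliced to exon 7 at 17235846: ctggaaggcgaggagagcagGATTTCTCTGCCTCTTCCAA
ENST00000469543, read into the intron from 17235390: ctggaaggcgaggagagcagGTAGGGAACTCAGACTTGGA

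ENST00000469543 measured 348, 318 and 476 CPM among the controls, compared with 543, 507 and 613 CPM in irradiated cultures. Control 3 was the highest control, and all irradiated cultures lay above it. The transcript rose by 0.54 on the log2 scale (SE 0.167, adjusted p = 0.0102, edgeR). Its IF was 16.1, 16.6 and 20.2% in the 3 controls, against 22.4, 22.0 and 23.0% after irradiation, without overlap, and the usage test did not pass (adjusted p = 0.262, edgeR). Its count was 0.577 to 0.760 of that of ENST00000224237 in controls and 0.847 to 0.897 in irradiated cultures (exact permutation p = 0.1, two-sided, n = 3 each). The rise lost its call without control 1 (adjusted p = 0.143), control 2 (0.0786) or irradiated culture 3 (0.149), by edgeR. Both VIM transcripts that fell past the fold limit were rare. ENST00000485947 had 15, 21 and 18 counts in controls and 4, 7 and 6 in irradiated cultures (log2 fold change −1.95, adjusted p = 5.48e-05, edgeR). ENST00000478746 had 9, 9 and 19 counts and then 3, 5 and 5 (−1.76, adjusted p = 0.00264, edgeR).

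THY1 and MCAM were each carried by 1 coding transcript. ENST00000284240 held 87.7 ± 0.712% of THY1 counts in controls and 88.1 ± 4.16% in irradiated cells, and it fell by 0.67 on the log2 scale (adjusted p = 0.000477, edgeR). ENST00000264036 held 90.6, 93.9 and 93.2% of MCAM counts in controls and 97.1, 94.9 and 97.0% in irradiated cultures. The irradiated cultures were all higher, the usage test did not pass (adjusted p = 1.00, edgeR), and the transcript rose by 0.65 (adjusted p = 0.00269, edgeR).

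NT5E counts fell in near-equal parts on 3 coding transcripts. ENST00000257770 held 35.3 ± 1.71% in controls and 35.8 ± 1.74% in irradiated cells, ENST00000369651, which lacks 1 exon of 150 bases, 34.8 ± 3.27% and 33.5 ± 1.52%, and the 3-exon ENST00000369646 29.9 ± 4.89% and 30.7 ± 2.26%. The groups overlapped in all 3. All 3 transcripts fell, by 0.65, 0.71 and 0.66 on the log2 scale (adjusted p = 0.034, 0.0194 and 0.0407, edgeR), and each lost its call without 4 or 5 of the 6 libraries, controls 1 and 2 among them. None of the 3 passed with DESeq2 (adjusted p = 0.0947, 0.0684 and 0.135). The first 2 differ at the end of exon 6 (chr6:85489599, plus strand), shown in lower case with the following exon in capitals.
ENST00000257770, joined to exon 7 at 85490508: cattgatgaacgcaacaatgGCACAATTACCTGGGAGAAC
ENST00000369651, joined past it at 85491977: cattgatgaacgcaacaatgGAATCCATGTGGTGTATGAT

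ENG counts were spread thinly over 23 kept transcripts, and the highest share of any one was 6.91 to 8.57% per library. Of the 24 ENG rows, 20 are not in release 29 and held 77.3% of ENG counts in both groups. The 2 known endoglin forms, the long ENST00000373203 and the short ENST00000344849, differ in whether the last intron is removed, which gives them different tails inside the cell. The last 20 bases of the shared exon (ending at chr9:127815943, minus strand) are in lower case below.
Long form, ENST00000373203, spliced to exon 15 at 127815806: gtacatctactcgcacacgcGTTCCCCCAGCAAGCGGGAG
Short form, ENST00000344849, read on from 127815942: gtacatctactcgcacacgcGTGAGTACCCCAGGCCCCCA
The long form had 9, 6 and 18 counts among the controls, compared with 32, 20 and 21 in irradiated cultures, and the short form 8, 8 and 16 and then 28, 12 and 20. Neither passed (log2 fold changes 0.85 and 0.61, adjusted p = 0.0599 and 0.239, edgeR), and their IFs overlapped between the groups. Another ENG transcript annotated as protein-coding, ENST00000480266, had 8, 6 and 13 counts in controls and 36, 14 and 16 in irradiated cultures. It passed on the adjusted p (log2 fold change 0.98, adjusted p = 0.0376, edgeR), though its CPM overlapped between the groups. The 5 ENG transcripts higher past the fold limit, with log2 fold changes from 1.10 to 1.24, were ENST00000713957, ENST00000713997, ENST00000714080, ENST00000714078 and ENST00000714103. Each was at 1.08 to 1.43 CPM in controls, none is in release 29, and none passed with DESeq2, with adjusted p from 0.0824 to 0.167. Of these 5 transcripts, 4 lost their call without control 2 and 4 without irradiated culture 1, with edgeR adjusted p up to 0.198.

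S100A4 counts were low and its 5 leading transcripts all overlapped between the groups. ENST00000481009, a non-coding model, held 32.4 ± 1.64% and 29.6 ± 3.62% of S100A4 counts, and the coding ENST00000368715 26.9 ± 6.95% and 22.9 ± 3.78%. The coding ENST00000354332 held 14.6 ± 3.60% and 14.2 ± 3.85%. ENST00000468373 and ENST00000368716 had the same counts in every library and held 11.3% each in controls and 13.4% in irradiated cells. None of the 5 passed, with adjusted p from 0.402 to 0.822 (edgeR).

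The share of counts in transcripts annotated as protein-coding was compared over 7 members. It was higher without overlap in MCAM, from 91.9 ± 1.29% to 95.3 ± 1.53%, and was lower without overlap in CD44, from 93.5 ± 1.08% to 90.4 ± 0.898%, and in VIM, from 54.9 ± 1.45% to 51.7 ± 0.353% (SD, n = 3). Each gave the smallest two-sided exact permutation p of 0.1, or 0.233 adjusted over the 7 members, so none passed. How often the coding share separates the groups among all genes was not computed, so the number of members without overlap has no background beside it. In MCAM the groups overlapped once counts were divided by transcript length. THY1 (91.9 and 92.5%), NT5E (all counts in coding transcripts), S100A4 (56.3 and 57.0%) and ENG (16.4% in both) overlapped. For ENG, 77.3% of counts in both groups fell on transcripts not in release 29, which have no class here, so its coding share is not known. The coding share of VIM rests on how counts were divided among its 3 inseparable transcripts.

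**Figure D4:**
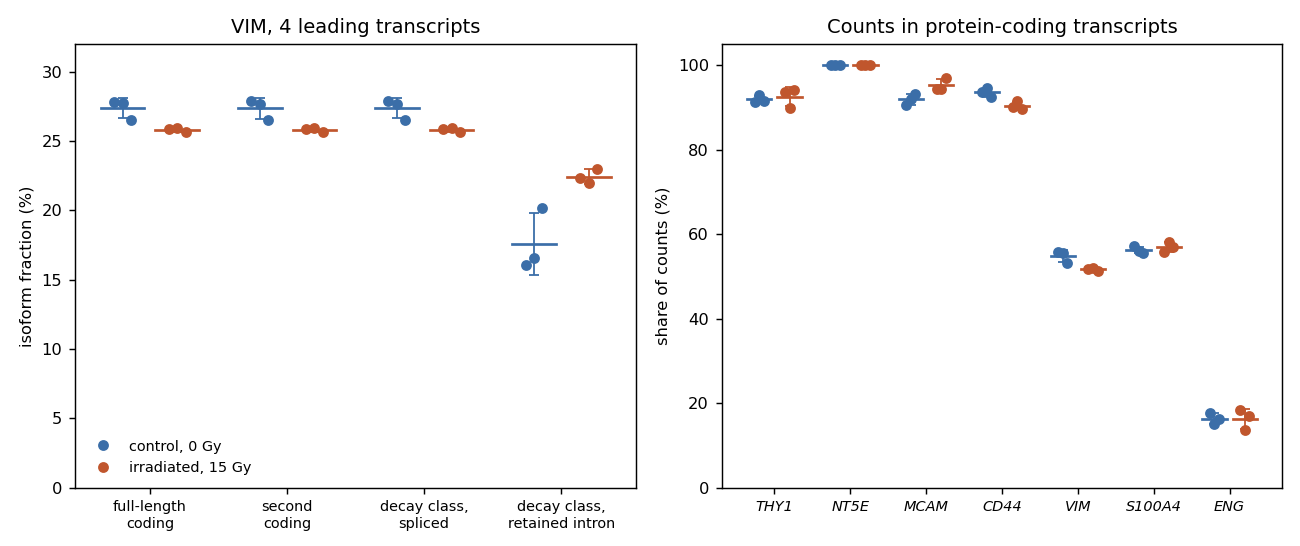
Isoform fraction of the 4 leading VIM transcripts (left, %) and the share of each marker's counts in transcripts annotated as protein-coding (right, %), with 3 libraries per group, the mean as a line and the SD as the bar. The retained-intron VIM transcript lies between 16.1 and 20.2% in controls and between 22.0 and 23.0% in irradiated cultures, and the coding shares of MCAM, CD44 and VIM do not overlap between the groups.

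Genes that work with the members were counted in 9 lists, in which 76 genes were tested, 16 rose and 10 fell, beside 11.6% higher and 14.1% lower of all genes. The 16 include ESRP1 and ADORA2A, which met the limit of 10 counts in 3 samples through the irradiated libraries alone and so had to differ. With library totals alone 37 rose and 2 fell, and with the length offset 12 rose and 7 fell. TGF-beta and BMP receptors and SMADs, the pathway in which ENG acts, had 4 of 11 genes that rose, 0 that fell and a median log2 fold change of 0.69 against 0.08 for all genes. The number that passed in this list was 2 without control 2, 7 without control 3, 8 with library totals alone and 2 with the length offset. TGFBR1, the type I TGF-beta receptor, rose from 19.3 ± 6.15 to 36.5 ± 4.19 CPM (log2 fold change 0.95, adjusted p = 0.00493, edgeR). The type II receptor TGFBR2 rose by 0.74 and the signal carrier SMAD3 by 0.69, from 44.7 ± 10.8 to 72.7 ± 1.75 CPM. TGFBR2 lost its call without control 2 or irradiated cultures 1 or 3 (adjusted p up to 0.105, edgeR), and with the length offset. Mesenchymal transcription factors had 0 of 5 that rose and 1 that fell, SNAI2 (SLUG), from 10.4 ± 1.38 to 5.17 ± 0.930 CPM (log2 fold change −1.0, adjusted p = 0.0156, edgeR). SNAI2 did not pass without control 2 or irradiated culture 1 (adjusted p up to 0.073), and ZEB1 (0.51) and ZEB2 (−0.26) did not pass.

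Among intermediate filament genes, the family of VIM, 3 of 6 rose and 2 fell, with a median of 0.56. PLEC, the filament linker plectin, rose from 64.5 ± 9.67 to 121 ± 25.2 CPM (log2 fold change 0.91, adjusted p = 0.0014, edgeR). The epithelial keratin KRT7 rose by 0.76, from 244 ± 50.6 to 416 ± 33.0 CPM, while KRT8 fell by 0.61, from 81.8 ± 2.04 to 53.5 ± 4.70 CPM. S100 genes and S100A4 partners had 0 of 10 that rose and 3 that fell, with a median of −0.26. Without control 3, 1 rose and 5 fell, without irradiated culture 3, 2 fell, and with library totals alone 4 rose and 2 fell. ANXA2, a membrane-binding annexin among the most abundant genes, fell from 10250 ± 1495 to 5480 ± 816 CPM (log2 fold change −0.90, adjusted p = 0.000904, edgeR), S100A13 fell by 0.66 and S100A11 by 0.51. S100A11 lost its call without irradiated culture 3 (adjusted p = 0.0585, edgeR) and with the length offset. ANXA2 and S100A13 also passed with library totals alone, and were the only genes of the 9 lists to fall there.

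Of the hyaluronan and CD44 partners, 3 of 13 passed upward and 0 downward, with a median of 0.35, and the number was 1 without control 1 or irradiated culture 3 and 7 with library totals alone. Among these 3 is ESRP1, an epithelial splicing regulator known to act on the variable exons of CD44, which was tested only because of its irradiated libraries. It had 1, 0 and 0 counts in the 3 controls, against 18, 12 and 15 after irradiation, and these counts are given as a description. RDX, the membrane-cytoskeleton linker radixin, rose by 0.50 and the sheddase ADAM17 by 0.79. RDX lost its call without control 1 or irradiated culture 3, ADAM17 without any 1 library (adjusted p up to 0.0909 and 0.161, edgeR), and both with the length offset. Of the extracellular adenosine genes, in which NT5E acts, 1 of 7 passed upward and 1 downward. ADK, adenosine kinase, fell from 245 ± 31.6 to 160 ± 23.0 CPM (log2 fold change −0.61, adjusted p = 0.00454, edgeR). The upward call is ADORA2A, an adenosine receptor that was tested through its irradiated libraries alone, with 0, 0 and 4 counts in controls and 20, 16 and 12 in irradiated cultures. DPP4, the surface peptidase that binds adenosine deaminase, did not pass (−0.55, adjusted p = 0.16, edgeR).

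Of the integrin receptors of ICAM1, VCAM1 and THY1, 3 of 11 listed genes were tested and none passed. ITGB1 measured 428 ± 19.2 and 403 ± 23.6 CPM (−0.09), ITGA5 had a log2 fold change of 0.27 and ITGAV of 0.05, and each of the 3 changed sign under at least 1 other scaling or selection of libraries. Other immunoglobulin-superfamily adhesion molecules had 1 of 8 that rose and 2 that fell. BSG (basigin) fell from 785 ± 81.5 to 554 ± 9.82 CPM (log2 fold change −0.50, adjusted p = 0.00575, edgeR) and CD58, a ligand of T cells, by 0.94, without passing under the length offset (−0.65, adjusted p = 0.0515, edgeR). L1CAM rose by 0.54, and lost its call without any 1 library except control 3 (adjusted p up to 0.133, edgeR) and with the length offset. NF-kappaB target genes, the group to which ICAM1 and VCAM1 belong, had 4 of 13 that rose and 1 that fell, with a median of 0.24. The number that passed was 3 without control 2 or irradiated culture 1, 7 without control 3 and 8 with library totals alone. NFKB2, a subunit of the factor itself, rose from 9.76 ± 1.93 to 27.0 ± 2.12 CPM (log2 fold change 1.45, adjusted p = 0.000586, edgeR). Its inhibitor NFKBIA rose by 0.77, IRF1 by 0.85, and NFKB1 by 1.06, from 16.7 ± 3.94 to 35.1 ± 5.75 CPM. CXCL1 was the gene that fell (−0.50, adjusted p = 0.0258, edgeR), with overlapping groups. Without passing, CXCL8 (−0.33), CXCL2 (−0.61), CCL2 (−0.49) and BIRC3 (−0.45) were below 0. TNFAIP3 (0.53), RELB (1.25), SOD2 (0.24) and IL6 (0.07) were above 0, also without passing.

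**Figure D5:**
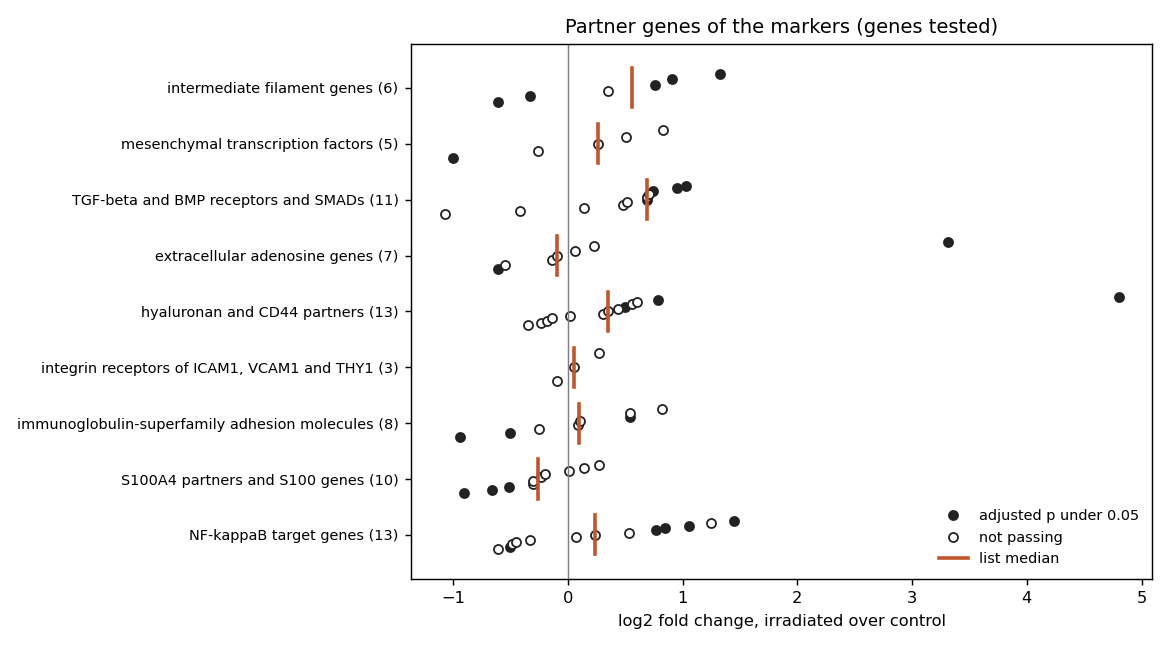
Log2 fold change of irradiated over control (x axis) of each tested gene in 9 lists of partner genes, with the number tested in brackets, filled where the adjusted p was under 0.05 and with the list median as a vertical bar. The receptor and SMAD list has its median at 0.69 and the S100 list at −0.26, and the points at 4.80 and 3.31 are ESRP1 and ADORA2A, fitted from controls with 1 and 4 counts in all and tested through their irradiated libraries alone.

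The study calls the cells microglia, and the defining markers CX3CR1, P2RY12, TMEM119, ITGAM, TYROBP, C1QA and C1QB had no row. Of 15 microglia and macrophage markers, 10 were under 10 counts in every library, and CSF1R, FCER1G, TREM2 and CD14 reached at most 10, 10, 13 and 21 counts. CD68, a lysosomal protein of macrophages that other cells also express, held 114 to 280 counts and did not pass (log2 fold change 0.23, adjusted p = 0.376, edgeR). The list summed to 22.8 to 29.8 CPM of library totals in controls and 39.1 to 45.4 in irradiated cultures. The markers that mesenchymal stromal cells lack were low as well, with CD34 at 0 to 11 counts and PTPRC at 0 to 1, and their list summed to 1.44 to 2.81 CPM in controls and 0.289 to 3.02 in irradiated cultures. Of the fibroblast markers, COL1A1 held 737 to 1656 counts and S100A6 9554 to 18086, while PDGFRA and DCN were at 0 to 2 and LUM had no row. COL1A2 rose by 1.35 on the log2 scale and FBLN1 by 0.96 (adjusted p = 0.00636 and 0.0497, edgeR). The FBLN1 groups overlapped, with control 3 at 7.04 CPM and irradiated culture 3 at 7.03 CPM. COL1A1 (0.12) and S100A6 (−0.20) did not pass (adjusted p = 0.515 and 0.219, edgeR). The list summed to 2117 to 2177 CPM of library totals in controls and 2512 to 2662 in irradiated cultures. Most of this sum was S100A6, which after TMM scaling went from 2419 to 2100 CPM, with all irradiated cultures below all controls. The 10 pericyte and smooth muscle markers summed to 11.1 to 12.9 CPM in controls and 31.6 to 40.5 in irradiated cultures, with PDGFRB at 13 to 19 counts. ACTA2, smooth muscle actin, rose from 4.32 ± 0.747 to 14.9 ± 3.84 CPM (log2 fold change 1.80, adjusted p = 0.00081, edgeR). The other tested markers of this list did not pass. KCNJ8 was at 0.75, ABCC9 at −0.12 and PDGFRB at −0.05 (adjusted p = 0.357, 0.888 and 0.958, edgeR). Among the untested, CSPG4 had 5, 12 and 13 counts in controls and 35, 23 and 45 in irradiated cultures. NOTCH3 had 10, 6 and 8 and then 22, 17 and 21. The untested RGS5, ANPEP, DES and MYH11 held at most 13 counts per library, with overlapping groups. Of 10 endothelial markers 0 passed the count limits, with PECAM1 at 0 to 2 counts, CDH5 and TEK without a row, TIE1 at 3 to 10 and ERG at 0 to 32, and the list summed to 0.821 to 1.29 CPM in controls and 1.91 to 5.93 in irradiated cultures. The 32 ERG counts were those of irradiated culture 3, against 0 and 3 in irradiated cultures 1 and 2, and made up most of the highest sum. Of 10 epithelial markers ESRP1 alone was tested, EPCAM was at 0 to 4 counts, and the list summed to 0.411 to 1.43 CPM in controls and 4.07 to 6.08 in irradiated cultures. Neuron and astrocyte markers summed to 40.6 to 58.8 and 71.0 to 76.3 CPM, and TUBB3, a tubulin of neurons and dividing cells, rose by 1.40 (adjusted p = 0.00125, edgeR). The other tested genes of that list did not pass and had log2 fold changes below 0, SNAP25 of −0.37 and SLC1A3 of −0.32, and the list median was −0.32. The calls of COL1A2, FBLN1, ACTA2 and TUBB3 were not checked with 1 library left out or under other scalings. Library totals carry the shift of 0.448 given above, and the part of these lists in the changes of the markers was not tested.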

How the data were processed

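RNA of 6 cultures of HMC3 was sequenced by the authors as full-length cDNA. According to the study's methods, reads were aligned with minimap2 to GRCh38, transcripts were assembled with StringTie2, and Salmon quantified them. The deposited table holds unnormalized counts per transcript. The sources used here do not give the versions of these tools, the annotation release, strand handling or any collapse of molecular identifiers.

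Rows were summed per gene. The study's limits were applied: a gene sum of at least 10 counts in at least 3 samples, a transcript with at least 3 counts in at least 1 sample, and at least 2 kept transcripts per gene. They kept 11118 genes and 74843 transcripts, with 95.63 to 96.45% of the counts, of which totals were 4870897 to 9082409. For genes and for transcripts the test was the robust quasi-likelihood test of edgeR 4.0.16 with TMM factors, in R 4.3.3, and usage with its transcript-level test, with Benjamini-Hochberg adjustment over all features. The SE was derived from the log2 fold change and the F statistic. Scripts were tested on simulated data. DESeq2 1.42.0 and limma 3.58.1 were alternatives. The study tested with DESeq2. Structures and classes came from GENCODE release 29, which held 70.2% of kept transcripts. The genes and lists were chosen with earlier results of these data known. Named transcripts had an isoform fraction of at least 10% or were differentially abundant, and the 3 genes with the smallest p were named in each list. The 3 CD44 transcripts with rising shares, the ENG long and short forms and ENST00000480266 were named after their values were seen. So were the marker genes and the further NF-kappaB target genes.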

Additional observations from a re-analysis of the deposited data

How the results depend on the processing

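Of the 7 members, 5 passed with RLE size factors, both other count filters and DESeq2, 4 with the length offset, 3 with library totals alone and 0 with the fold limit, and 1 to 5 when 1 library was left out (1 without irradiated culture 1). Differentially abundant member transcripts numbered 10, against 24 with library totals alone (8 shared), 3 with DESeq2 (3 shared) and 5 to 15 with 1 library left out (5 without irradiated culture 1, 6 without control 2). The count of switched transcripts was 0 throughout, and 6 on the adjusted p alone. The difference in the CD44 variable share was −4.11 points, −7.74 with counts divided by length and −4.86 to −3.65 with 1 library left out. It was −9.26 without the pair that shares the last exon of 3274 bases, a choice made after seeing the data. That pair includes the standard form. Partner genes that passed numbered 26, and 17 to 35 with 1 library left out (17 without control 2). The cause was not tested.

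Log2 fold changes changed sign with library totals alone for CD44 (0.04), its ENST00000263398 (0.03), S100A4 (0.20), its ENST00000481009 (0.07), ENST00000368715 (0.09), ENST00000354332 (0.02), ENST00000468373 and ENST00000368716 (0.29 each), ITGB1 (0.36, adjusted p = 0.0183, edgeR) and ZEB2 (0.17). They did so with the length offset for S100A4 (0.10), ITGA5 (−0.01) and ITGAV (−0.27). With 1 library left out, S100A4 ran from −0.50 to 0.19, ENST00000354332 from −0.89 to 0.33, and ENST00000468373 and ENST00000368716 from −0.50 to 0.43, each above 0 without control 2 alone, and ITGAV from −0.0039 (without control 3) to 0.10.

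Same-numbered cultures did not deviate together across genes (r = −0.001, 0.091 and 0.016). With the replicate number as a block, 6 members passed, VIM being added (adjusted p = 0.0429, edgeR), with 10 transcripts and 32 partner genes. Depth limits ICAM1, VCAM1, S100A4 and the rarer transcripts.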
